A study of Piaractus mesopotamicus with 9 samples.

Results

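The genes described here build the contacts between a muscle cell and the matrix around it: integrins, laminins, nidogens, agrin, the dystrophin complex and the linkers on its inner side. They were chosen by gene name, with no measured value in the choice beyond a mean raw count of 10 or more over the libraries. With upper and lower case read alike, 70 names matched, and 55 of them, with 170 contigs, reached that count, out of 13162 names and 35575 contigs tested in all. The cells were myotubes of pacu (Piaractus mesopotamicus, a South American freshwater fish), grown from myoblasts of the fast-twitch muscle of pooled juveniles. In the AA group (3 libraries) the myotubes spent 12 h without amino acids and a further 24 h in DMEM, a medium that holds amino acids. In the IGF1 group (3 libraries) the 24 h that followed were again without amino acids, with recombinant IGF1 of gilthead sea bream added. In the CTR group (3 libraries) the amino acid-free medium, a salt solution with vitamins and glucose, was kept for all 36 h. AA and CTR media thus differed in their base as well as in amino acids, and both differences cannot be told apart. AA and IGF1 media differed in their base, in amino acids and in added IGF1, which cannot be told apart either. All wells had been coated with poly-L-lysine and laminin before plating, so every group grew on added laminin.

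As background, laminins are trimers of an alpha, a beta and a gamma chain that polymerize into the sheet of the basement membrane, and nidogens tie that sheet to type IV collagen. Integrins, each an alpha and a beta subunit, bind these ligands outside the cell and, through talin, vinculin, paxillin and integrin-linked kinase, the actin cytoskeleton inside. In striated muscle a second route runs from laminin and agrin through dystroglycan, the sarcoglycans and sarcospan to dystrophin, and loss of either route causes muscular dystrophy in mammals.

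The libraries held 1366043 (AA replicate 3) to 53525876 (IGF1 replicate 3) counts, and AA replicate 3 had no count in 15.1% of tested contigs, against at most 4.33% in each other library. The members took 0.617 to 0.675% of all counts in AA, 0.553 to 0.567% in IGF1 and 0.659 to 0.779% in CTR. The labelled cell type was checked against 27 myotube markers, of which 19 had counts. Their summed normalized count, led by actc1a, was 10790 to 16670 in AA and 5338 to 5905 in IGF1, against 5121 to 5604 in CTR. Of 14 with a tested contig, 1 passed as higher and 1 as lower in IGF1 against CTR by edgeR's quasi-likelihood test. By counts, myog had 789.4 to 1030 in IGF1 against 409.5 to 628.4 in CTR, and myf5 76.53 to 151.1 against 192.8 to 259.2. The names myf6, mef2c, mymx, acta1a and acta1b were on no contig, so these were not measured. Connective tissue markers (11 of 15 with counts, led by type I collagen) summed to 888100 to 1001000 in AA and 1375000 to 1456000 in IGF1, against 919200 to 992100 in CTR. Of the 11, 1 passed as higher and 3 as lower in AA against CTR, and 5 as higher and 0 as lower in IGF1 against CTR by edgeR's quasi-likelihood test. Among those with fewer counts, fap had 864.8 to 1075 in AA and 2363 to 2760 in IGF1, against 2516 to 2864 in CTR, and twist1a 42.33 to 56.24 in AA and 71.14 to 103.5 in IGF1, against 127 to 155 in CTR. In the other direction, pdgfra had 239 to 340.8 in AA and 236.5 to 484 in IGF1, against 141.6 to 236.2 in CTR. Pericyte and smooth muscle markers (8 of 8, led by acta2 and tagln) summed to 12710 to 13990 in AA and 11140 to 12610 in IGF1, against 17240 to 19390 in CTR. Keratins carried the epithelial sum (5 of 8 markers), at 22230 to 22740 in AA and 54930 to 61930 in IGF1, against 64610 to 66680 in CTR. No contig carried the names cdh1 or krt5. Immune markers (3 of 10) stayed between 0 and 68.4 in every library. No contig carried the names mpeg1, coro1a, lcp1, spi1b or csf1rb, so these were not measured. The part these shifts have in the results that follow was not tested, and in such mixed cultures fewer cells of a type and less RNA per cell cannot be told apart.

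By adjusted p, few of the members changed with either treatment. A name was read on its contig with the highest mean raw count, and it passed at an adjusted p (p-adj) of 0.05 or less in edgeR's quasi-likelihood test with Benjamini-Hochberg adjustment over all contigs. In AA against CTR 6 of 55 members passed (10.9%), against 13.1% of all tested names. Of these, 2 were higher, against 6.56% of all names, and 4 were lower, against 6.57%. With library size as the only scaling, 9 members passed and the split was 6 higher to 3 lower. Under that scaling the median log2 fold-change of all names also moved up, from 0.03 to 0.17. The shares of all names in this paragraph are from the edgeR test named above, not from the alternatives. The 2-fold minimum of the study left 3 members, against 7% of all names. In IGF1 against CTR 4 members passed (7.27%), against 6.42% of all names. The 4 were lower, against 3.31% of all names. No member passed as higher by edgeR's quasi-likelihood test, against 3.11% of all names, although 8 were higher at an unadjusted p under 0.05 and DESeq2 called 2, nid1b and nid2a. In both directions together 16 of the 55 members had such an unadjusted p, a larger share than the 18.5% of all names. With edgeR's bias-adjusted quasi-likelihood method the split was 5 higher to 5 lower, and with only the 2 groups compared it was 4 to 4. In that comparison 1 member passed the 2-fold minimum, against 2.93% of all names.

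In the direct comparison of AA with IGF1, 6 members passed (10.9%), against 9.03% of all names. Of these 5 were higher in AA, against 4.23% of all names, and 1 was lower, against 4.8%, and 4 passed the 2-fold minimum, against 4.76%. By contig, 16 of 170 passed in AA against CTR (9.41%, against 11.9% of all contigs), 16 in IGF1 against CTR (9.41%, against 5.93%) and 14 in AA against IGF1 (8.24%, against 8.39%). At adjusted p the member shares by name thus lay near those of all names in each comparison. At an unadjusted p under 0.05 were 20, 16 and 16 of the 55 members, in each comparison a larger share than the 26.8%, 18.5% and 22.5% of all names. The median log2 fold-change of the members was 0.16 in AA against CTR (0.03 over all names), 0.03 in IGF1 against CTR (0.05 over all names) and 0.02 in AA against IGF1 (-0.02 over all names). Within 0.5 of zero on the log2 scale lay 28, 40 and 36 of the 55 members in these comparisons (50.9%, 72.7% and 65.5%), against 59.4%, 70.1% and 63.4% of all names. The comparisons of AA and of IGF1 with CTR share the 3 CTR libraries.

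**Figure D1:**
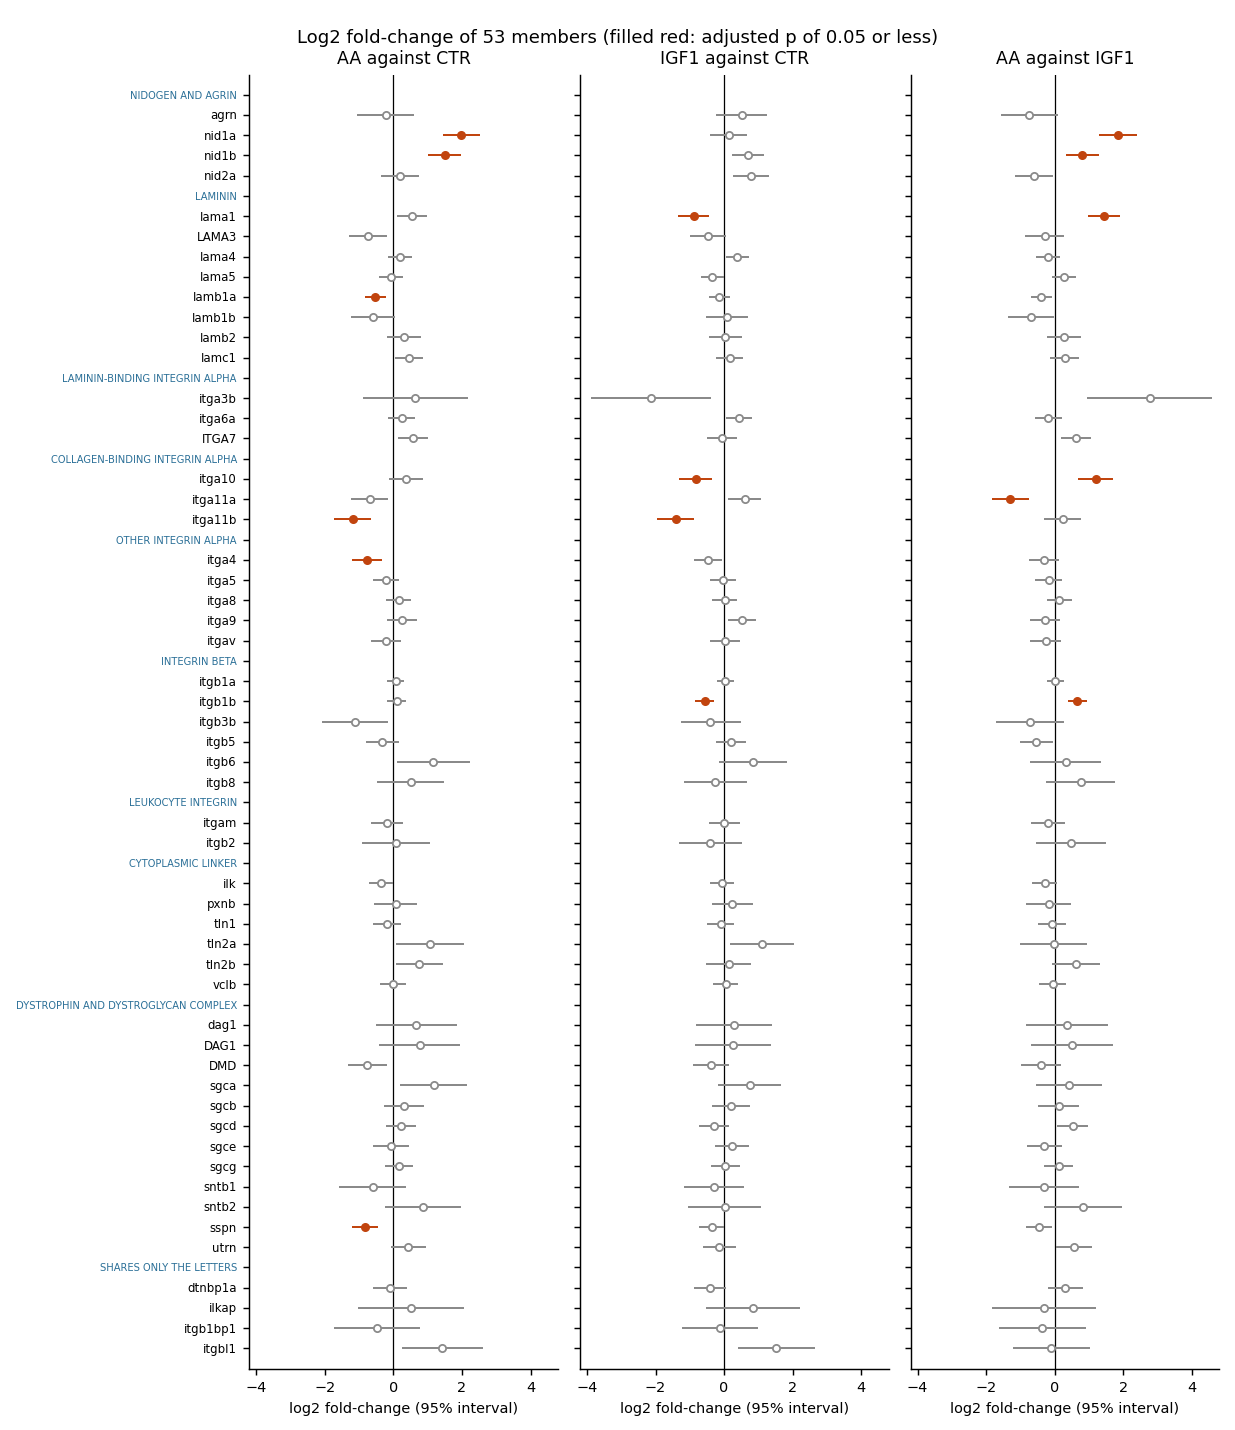
Log2 fold-change with 95% interval of 53 of the 55 members, 1 row a gene name grouped by role, in AA against CTR (left), IGF1 against CTR (middle) and AA against IGF1 (right); filled red points passed at an adjusted p of 0.05 or less. Of the 53 drawn, 6 passed in the left panel, 4 in the middle and 6 on the right, and the nidogens nid1a and nid1b lie farthest right among those that passed on the left.

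Both members that rose in AA against CTR were nidogens. Normalized counts of nid1a were 1164, 780.4 and 780.4 in AA, 304, 233.7 and 210.6 in IGF1 and 344.6, 170.8 and 176.8 in CTR. Every AA library stood above every IGF1 and CTR library, and IGF1 and CTR overlapped. The means were 908 ± 222 in AA, 249 ± 48.7 in IGF1 and 231 ± 98.6 in CTR (SD, n = 3 each), and nid1a rose in AA by a log2 fold-change of 1.98 ± 0.25 (SE; fold-change 3.94; edgeR quasi-likelihood p-adj = 2.53e-05). Against IGF1 the AA level was higher by 1.85 ± 0.25 (edgeR quasi-likelihood p-adj = 6.47e-05), and IGF1 against CTR gave 0.13 with a 95% interval of -0.38 to 0.63.

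The second copy, nid1b, was ordered AA, IGF1, CTR. It had 349.2, 669.5 and 562.4 normalized counts in AA, 267.9, 344.8 and 299.9 in IGF1 and 226.5, 167.2 and 165.1 in CTR. The groups did not overlap. It rose in AA by 1.5 ± 0.21 on the log2 scale (fold-change 2.83; edgeR quasi-likelihood p-adj = 1.17e-04). The IGF1 difference of 0.70 ± 0.21 from CTR did not pass (edgeR quasi-likelihood p-adj = 0.0575), though it did in 8 of 19 alternatives. AA against IGF1 gave 0.80 ± 0.21 (edgeR quasi-likelihood p-adj = 0.0231); this call ended with counts summed per name, in limma, and without AA replicate 2 (0.50), IGF1 replicate 1 (0.72) or IGF1 replicate 3 (0.80).

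The other nidogen and agrin did not pass on their leading contigs. For nid2a, which bridges laminin and collagen networks like its relatives, the means were 218 ± 88.3 in AA, 343 ± 54.5 in IGF1 and 195 ± 38.6 in CTR (SD, n = 3 each). The 3 IGF1 libraries were above the CTR libraries, and the log2 difference was 0.79 ± 0.24 (edgeR quasi-likelihood p-adj = 0.0559); 2 of its 20 contigs passed in that comparison, all 20 with a positive value. Agrin (agrn), the heparan sulfate proteoglycan whose nerve-derived form clusters acetylcholine receptors, overlapped between all groups, with -0.23 ± 0.38 in AA and 0.51 ± 0.34 in IGF1 against CTR. Myotube markers, with sums given above, were also higher in AA than in CTR (10 passed as higher and 0 as lower). Of 4 tendon markers with a tested contig, 2 passed as higher and 0 as lower in AA, both against CTR and against IGF1. The part of these markers in the nidogen values was not tested.

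**Figure D2:**
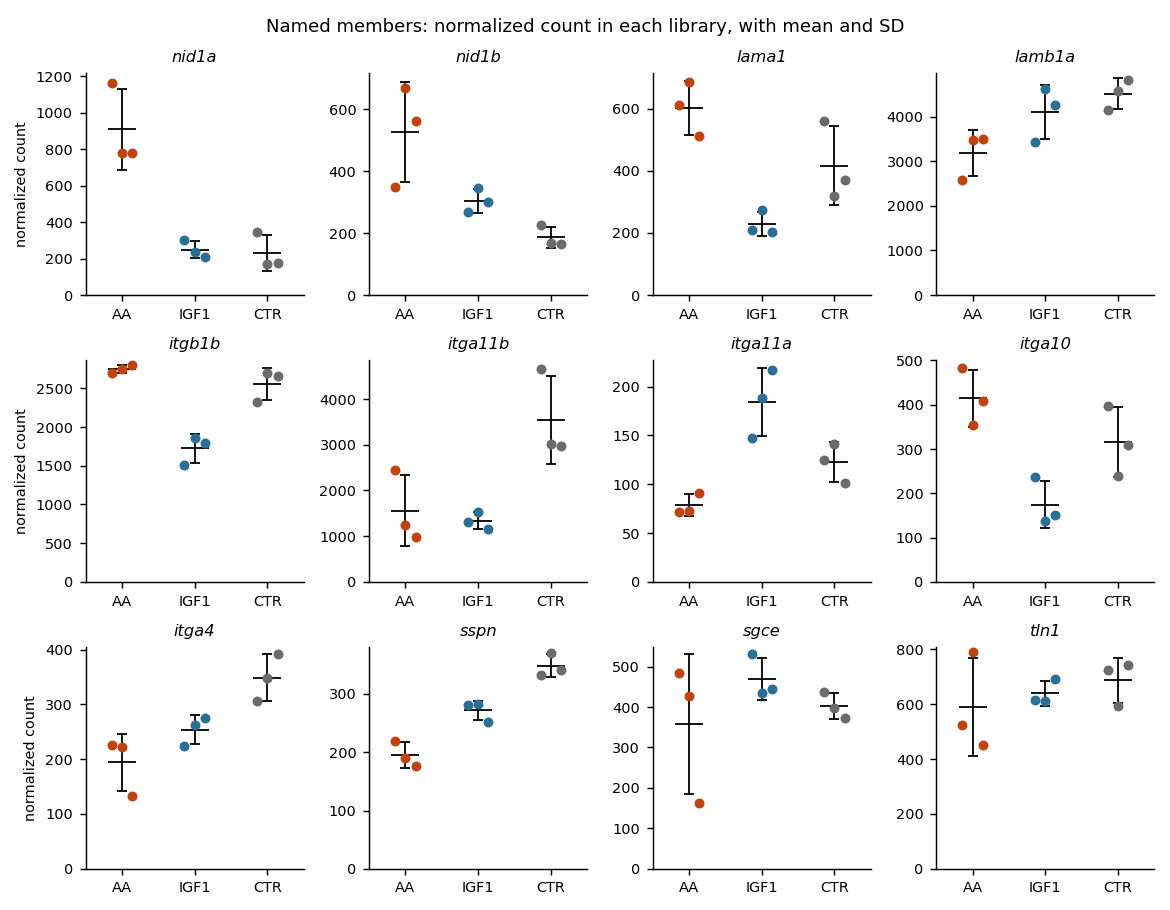
Normalized count in each library (points) with mean and SD (bars) for 12 named members, AA, IGF1 and CTR from left to right, each vertical axis from 0. For nid1a the 3 AA libraries lie between 780.4 and 1164, above all others; for itgb1b the 3 IGF1 libraries lie between 1516 and 1861, below all others; for itga11b the 3 CTR libraries lie between 2966 and 4658, above all others.

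Among 9 tested laminin chains, lama1 passed in IGF1 against CTR and in AA against IGF1, and lamb1a in AA against CTR. In AA against CTR, IGF1 against CTR and AA against IGF1, 1 of the 9 thus passed each time. Of all names 13.1%, 6.42% and 9.03% did. At an unadjusted p under 0.05 were 5, 3 and 4 of the 9, against 26.8%, 18.5% and 22.5% of all names. Laminin alpha 1 (lama1), the alpha chain of the laminin of early basement membranes, had 611.7, 685.1 and 513.2 normalized counts in AA, 209.8, 273.6 and 203.4 in IGF1 and 561.5, 317.6 and 371.3 in CTR. The IGF1 libraries lay below all AA and all CTR libraries, and AA and CTR overlapped. In IGF1 it fell by 0.89 ± 0.20 on the log2 scale against CTR (fold-change 0.538; edgeR quasi-likelihood p-adj = 0.00957), and AA was above IGF1 by 1.44 ± 0.21 (fold-change 2.72; edgeR quasi-likelihood p-adj = 1.42e-04). The IGF1 call ended in limma and without CTR replicate 1 (-0.62), IGF1 replicate 1 (-0.85) or IGF1 replicate 3 (-0.81). In AA against CTR lama1 had 0.55 ± 0.20 (edgeR quasi-likelihood p-adj = 0.0824), a difference that passed with library size as the only scaling (0.70), with edgeR's bias-adjusted method (0.58) and without CTR replicate 1 (0.82) or AA replicate 3 (0.65).

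Laminin beta 1 (lamb1a), the laminin with the most counts, was lower in AA than in CTR. It had 2588, 3471 and 3501 normalized counts in AA, 3443, 4631 and 4262 in IGF1 and 4158, 4583 and 4834 in CTR. All AA libraries were below all CTR libraries, and IGF1 overlapped both. It fell by 0.53 ± 0.13 on the log2 scale in AA (fold-change 0.693; edgeR quasi-likelihood p-adj = 0.0121), a call that ended with library size as the only scaling (-0.37) and without CTR replicate 3 (-0.48) or AA replicate 1 (-0.40). In IGF1 against CTR it had -0.14, with a 95% interval of -0.41 to 0.13.

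The other 7 chains did not pass in any of the 3 comparisons by edgeR's quasi-likelihood test. DESeq2 called 3 of the 9 in AA against CTR, LAMA3 among them, 1 in IGF1 against CTR and 2 in AA against IGF1. LAMA3, an alpha chain of epithelial basement membranes in mammals, had 201.1, 342.9 and 232 normalized counts in AA and 322.1, 466.5 and 555.5 in CTR. The groups overlapped, with a log2 difference of -0.75 ± 0.25 (edgeR quasi-likelihood p-adj = 0.0600). It was chosen after its values were seen, and so are the other genes named below without a passing value. The gamma 1 chain lamc1, which most laminins share, had 0.44 (95% interval 0.06 to 0.82) in AA and 0.16 (-0.21 to 0.52) in IGF1. Laminin alpha 4 (lama4), found along vessels and nerves in mammals, had 0.19 in AA and 0.38 in IGF1, and laminin alpha 5 (lama5) -0.07 and -0.34; the intervals of lama4 and lama5 in IGF1 left out 0. The main alpha chain of adult muscle in mammals, lama2, was not analysed here.

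The beta 1 integrin, the shared partner of the laminin- and collagen-binding alpha subunits, has a pair of copies in fish, and IGF1 was followed by a lower level of one of them. For itgb1b the normalized counts were 2701, 2756 and 2798 in AA, 1516, 1861 and 1800 in IGF1 and 2317, 2696 and 2657 in CTR. The IGF1 libraries formed a group below all others, and the AA libraries were slightly above all CTR libraries. In IGF1 it fell by 0.57 ± 0.12 against CTR on the log2 scale (fold-change 0.674; edgeR quasi-likelihood p-adj = 0.00431), and AA against IGF1 gave 0.66 ± 0.12 (edgeR quasi-likelihood p-adj = 0.00117). Both calls held in all 19 alternatives, whereas AA against CTR gave 0.09 with a 95% interval of -0.16 to 0.33.

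The other copy, itgb1a, gave 2227, 2150 and 2229 in AA, 2117, 2135 and 2162 in IGF1 and 2255, 1951 and 2057 in CTR. All groups overlapped with CTR, and the log2 differences were 0.06 (95% interval -0.17 to 0.29) in AA and 0.03 (-0.19 to 0.26) in IGF1, the narrowest intervals of the beta subunits. The remaining beta subunits, itgb3b, itgb5, itgb6 and itgb8, are partners of alpha v and did not pass in any comparison. Of these itgb3b varied within groups, with 86.78, 85.21 and 7.03 in AA and 57.83, 208.8 and 201.2 in CTR, the lowest AA value resting on the shallowest library. For itgb6 all AA libraries (29.63, 47.34 and 49.21) were above all CTR libraries (20.88, 9.49 and 24.05), with a log2 difference of 1.16 ± 0.49 (edgeR quasi-likelihood p-adj = 0.145).

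Both treatments were followed by less itga11b, the collagen-binding alpha 11 subunit that fibroblasts express in mammals. It had 2440, 1246 and 977.2 normalized counts in AA, 1315, 1539 and 1167 in IGF1 and 4658, 3022 and 2966 in CTR. The AA and IGF1 libraries overlapped each other and lay below all CTR libraries. It fell by 1.19 ± 0.24 on the log2 scale in AA (fold-change 0.440; edgeR quasi-likelihood p-adj = 0.00311) and by 1.41 ± 0.24 in IGF1 (fold-change 0.376; edgeR quasi-likelihood p-adj = 9.70e-04). These calls held in all 19 alternatives, with -1.67 to -0.94 in AA and -1.53 to -1.17 in IGF1 when single libraries were left out. By edgeR's quasi-likelihood test it was the 1 member that passed against CTR with both treatments, and in 8 of 19 alternatives nid1b also passed in IGF1. Summed pericyte and smooth muscle markers were likewise lower in both treatments, and so were the connective tissue markers pdgfrb (829.6 to 1213 in AA and 900.6 to 962.4 in IGF1, against 1299 to 1349 in CTR) and twist1a. Other connective tissue markers went the other way: pdgfra was higher in both treatments than in CTR. Against CTR 5 of the markers passed as higher and 0 as lower in IGF1, and 1 as higher and 3 as lower in AA. The collagen-led sum of connective tissue was higher in IGF1, and fap was lower in AA but overlapped between IGF1 and CTR. Their part in the itga11b values was not tested.

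Its copy itga11a had another pattern. The normalized counts were 71.96, 73.04 and 91.4 in AA, 147.4, 188.1 and 217.4 in IGF1 and 124.5, 141.6 and 100.8 in CTR. The AA libraries were below all CTR libraries, and these below all IGF1 libraries. Neither difference from CTR passed (log2 -0.69 ± 0.24 in AA and 0.60 ± 0.21 in IGF1; edgeR quasi-likelihood p-adj = 0.0746 and 0.119), but AA was lower than IGF1 by -1.30 ± 0.25 (fold-change 0.407; edgeR quasi-likelihood p-adj = 0.00198), in all 19 alternatives. It was the 1 member that passed as lower in AA than in IGF1. Of its 5 contigs, 1 passed in IGF1 against CTR (log2 1.34, edgeR quasi-likelihood p-adj = 0.0378), and all 5 had a positive value there. The contig that passed was of another assembled gene than the leading contig. The bias-adjusted method also called itga11a in IGF1 against CTR.

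The third collagen-binding subunit, itga10, which cartilage expresses in mammals, had 482.6, 354.4 and 407.8 normalized counts in AA, 236, 136.8 and 150.5 in IGF1 and 396.8, 238.7 and 310.1 in CTR. The IGF1 libraries were below all others, though the highest of them, 236, nearly met the lowest CTR value, and AA and CTR overlapped. It fell by 0.82 ± 0.22 on the log2 scale in IGF1 (fold-change 0.565; edgeR quasi-likelihood p-adj = 0.0292). That call ended with counts summed per name, in limma, and without CTR replicate 1 (-0.63), CTR replicate 3 (-0.84), IGF1 replicate 2 (-0.71) or IGF1 replicate 3 (-0.70). AA was higher than IGF1 by 1.20 ± 0.23 (fold-change 2.30; edgeR quasi-likelihood p-adj = 0.00207) in all 19 alternatives.

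The laminin-binding alpha subunits, itga3b, itga6a and ITGA7, did not pass by edgeR's quasi-likelihood test in any comparison. Of the 3, 1 in AA against CTR, 2 in IGF1 against CTR and 2 in AA against IGF1 had an unadjusted p under 0.05. The shares of all names were 26.8%, 18.5% and 22.5%. DESeq2 called 1 of the 3, ITGA7 in AA against IGF1. The bias-adjusted method called itga3b in IGF1 against CTR, and ITGA7 and itga3b in AA against IGF1. ITGA7, the main laminin-binding alpha subunit of mammalian muscle fibres, had 218, 210.3 and 225 normalized counts in AA, 120.5, 151 and 149.5 in IGF1 and 140.6, 126.3 and 168.7 in CTR. All AA libraries were above all others, and IGF1 and CTR overlapped. The log2 differences were 0.56 ± 0.20 in AA against CTR (edgeR quasi-likelihood p-adj = 0.0729) and 0.62 ± 0.20 in AA against IGF1 (edgeR quasi-likelihood p-adj = 0.0637). For itga3b, the tested member with the lowest mean raw count (11.2, next to the minimum of 10), the interval in AA against IGF1 ran from 0.97 to 4.56. The raw counts of itga3b were 2, 33 and 2 in AA and 2, 2 and 9 in IGF1. Its normalized counts overlapped between these groups, and the difference did not pass (edgeR quasi-likelihood p-adj = 0.0528). Just under the minimum lay sntg1, a syntrophin, with a mean raw count of 5.44 on its best contig.

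Of the other alpha subunits, itga4, itga5, itga8, itga9 and itgav, only itga4 passed, in AA against CTR, where 13.1% of all names did. At an unadjusted p under 0.05 were 1, 2 and 0 of the 5 in AA against CTR, IGF1 against CTR and AA against IGF1. The shares of all names were 26.8%, 18.5% and 22.5%. Alpha 4, which binds fibronectin and VCAM-1 and is carried by myoblasts as well as leukocytes, had 226.5, 221.8 and 133.6 normalized counts in AA, 223.9, 262.2 and 275.4 in IGF1 and 306, 348.9 and 391.8 in CTR. The AA and the IGF1 libraries were all below the CTR libraries. It fell by 0.78 ± 0.19 on the log2 scale in AA (fold-change 0.583; edgeR quasi-likelihood p-adj = 0.0122), a call that ended without CTR replicate 3 (-0.69), and the IGF1 difference of -0.46 ± 0.18 did not pass (edgeR quasi-likelihood p-adj = 0.175). The fibronectin receptor subunit itga5 had -0.22 in AA and -0.04 in IGF1. Alpha 8 (itga8), a receptor for nephronectin, had 0.15 (95% interval -0.19 to 0.48) and 0.02 (-0.31 to 0.35). The leukocyte subunits itgam and itgb2 had counts in every library, 107.9 to 159.4 and 14.25 to 31.75 after normalization. Neither passed by edgeR's quasi-likelihood test or DESeq2. Neither was at an unadjusted p under 0.05, against 26.8%, 18.5% and 22.5% of all names in the 3 comparisons. The pan-leukocyte marker ptprc had 0 to 32.46 in AA and 25.51 to 68.4 in IGF1, against 4.016 to 26.28 in CTR. No contig carried the names mpeg1, coro1a, lcp1, spi1b or csf1rb.

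Inside the cell, none of 6 linkers passed by edgeR's quasi-likelihood test or DESeq2 in any comparison. At an unadjusted p under 0.05 were 3 in AA against CTR, 1 in IGF1 against CTR and 0 in AA against IGF1. The shares of all names were 26.8%, 18.5% and 22.5%. Talin 1 (tln1), which activates integrins and ties them to actin, had the most counts of the linkers: 524.9, 789.9 and 450 in AA, 613.7, 612.7 and 691.8 in IGF1 and 726.1, 594.2 and 741.6 in CTR. The groups overlapped, with log2 differences of -0.19 (95% interval -0.56 to 0.19) in AA and -0.10 (-0.47 to 0.27) in IGF1. Talin 2a (tln2a), a copy of the talin of muscle and brain, had 16.93, 28.4 and 28.12 in AA, 25.51, 22.8 and 25.38 in IGF1 and 12.05, 10.22 and 12.38 in CTR. Both treated groups stood above all CTR libraries, at 1.06 ± 0.46 and 1.1 ± 0.43 on the log2 scale, but neither difference passed (edgeR quasi-likelihood p-adj = 0.157 in AA and 0.170 in IGF1); the bias-adjusted method called the IGF1 difference, and counts summed per name the AA difference. Vinculin (vclb) had -0.02 (-0.37 to 0.34) in AA and 0.05 (-0.29 to 0.38) in IGF1, integrin-linked kinase (ilk) -0.35 (-0.68 to -0.03) and -0.06 (-0.37 to 0.26), and paxillin (pxnb) 0.06 and 0.24.

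Of 13 names of the dystrophin and dystroglycan complex, 1, sspn, passed by edgeR's quasi-likelihood test, in AA against CTR, where DESeq2 called 2, sspn and DMD. Of all names 13.1% passed by edgeR's quasi-likelihood test in AA against CTR. At an unadjusted p under 0.05 in that comparison were 3 of the 13, against 26.8% of all names. Sarcospan, the small membrane protein that holds the sarcoglycans to dystroglycan, had 220.1, 189.4 and 175.8 normalized counts in AA, 281.3, 282.1 and 252.6 in IGF1 and 332.5, 370.8 and 342 in CTR. The groups did not overlap, with AA lowest, IGF1 between and CTR highest. It fell by 0.83 ± 0.17 on the log2 scale in AA (fold-change 0.563; edgeR quasi-likelihood p-adj = 0.00275), in all 19 alternatives, and IGF1 differed from CTR by -0.36 ± 0.16 (edgeR quasi-likelihood p-adj = 0.224), while AA against IGF1 gave -0.47 ± 0.17 (edgeR quasi-likelihood p-adj = 0.105). In IGF1 against CTR and AA against IGF1 none of the 13 passed by edgeR's quasi-likelihood test or DESeq2. There 1 and 3 were at an unadjusted p under 0.05, against 18.5% and 22.5% of all names.

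Dystrophin itself (DMD), the link from the complex to actin, had 88.89, 94.68 and 42.18 in AA, 116.2, 102.6 and 106.9 in IGF1 and 168.7, 138.7 and 119.5 in CTR. All AA libraries were below all IGF1 libraries and these below all CTR libraries, with a log2 difference of -0.77 ± 0.26 for AA against CTR (edgeR quasi-likelihood p-adj = 0.0593). That difference passed in DESeq2, without a filter on low counts and with counts summed per name. Of its 8 contigs 2 passed in AA (edgeR quasi-likelihood p-adj from 0.0443 upward), and 3 had a positive value. Utrophin (utrn), the relative of dystrophin that can take its place in mammalian muscle, had 0.43 (95% interval -0.05 to 0.92) in AA and -0.14 (-0.60 to 0.32) in IGF1. The sarcoglycans sgcb, sgcd, sgce and sgcg had between -0.07 and 0.31 in AA and between -0.30 and 0.23 in IGF1.

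Epsilon-sarcoglycan (sgce), which tissues beside muscle also express in mammals, had the most counts of the complex, with 484.7, 427.4 and 161.7 in AA, 530.1, 436 and 443.6 in IGF1 and 436.2, 398.6 and 372 in CTR. The groups overlapped, and the low AA value was that of the shallowest library. Alpha-sarcoglycan (sgca), which is confined to striated muscle in mammals, had 27.51, 31.79 and 49.21 in AA, 19.13, 28.5 and 27.98 in IGF1 and 12.05, 12.41 and 19.1 in CTR. The AA and IGF1 libraries were above all CTR libraries, but neither difference passed (log2 1.17 ± 0.45 and 0.75 ± 0.42; edgeR quasi-likelihood p-adj = 0.106 and 0.396). Dystroglycan appeared under the names dag1 and DAG1, whose leading contigs came from 1 assembled gene with nearly equal counts (mean raw counts of 24.0 and 24.2), so they are not separate measurements. At that depth DAG1 had 0.76 with an interval of -0.39 to 1.90 in AA, which spans 0. The syntrophins sntb1 and sntb2, scaffold proteins of the complex, had -0.60 and 0.86 in AA.

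The remaining 4 tested names matched through the start of their names and are not themselves members of these families. They are ilkap (a phosphatase), dtnbp1a (dysbindin), itgb1bp1 (a cytoplasmic binder of beta 1 integrin) and itgbl1 (an integrin beta-like protein). None of these passed by edgeR's quasi-likelihood test or DESeq2. At an unadjusted p under 0.05 were 1, 1 and 0 in the 3 comparisons, against 26.8%, 18.5% and 22.5% of all names. The bias-adjusted method called itgbl1 against CTR in both AA and IGF1. The 15 names under the count minimum, among them itga1, itgb4, itga3a, lamc3, dtna and vcla, had 4 to 97 raw counts each over all libraries and their 49 contigs, and their expression could not be compared at this depth.

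For most names that passed, the tested contigs came from 1 assembled gene. The 55 names were spread over 66 assembled genes, and 38 of the names had more than 1 tested contig. All 6 contigs of itga11b passed in both AA (-1.31 to -1.16) and IGF1 (-1.48 to -1.39), both contigs of nid1b, lamb1a and itga4 passed in AA, and both of itgb1b passed in IGF1. The contigs of 1 assembled gene share sequence and hence reads, so they are not replicates and could hardly disagree. Across assembled genes of a name, signs could differ. In AA against CTR agrn ran from -0.23 to 2.17, DMD from -0.84 to 1.01 and itgam from -0.93 to 0.05. There dag1, itga11a, lama1 and tln2a kept 1 sign. In IGF1 against CTR dag1 ran from -1.05 to 0.30 and itgam from -0.17 to 0.24. Some of these contigs lay near the minimum mean raw count of 10. For lama1, whose 7 contigs come from 4 assembled genes, 4 passed in IGF1 and 3 had a positive value there, up to 0.73, so its call holds for 1 assembled gene. The 5 contigs of itga11a ran from -1.60 to -0.77 in AA against IGF1, and 4 of them passed.

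**Figure D3:**
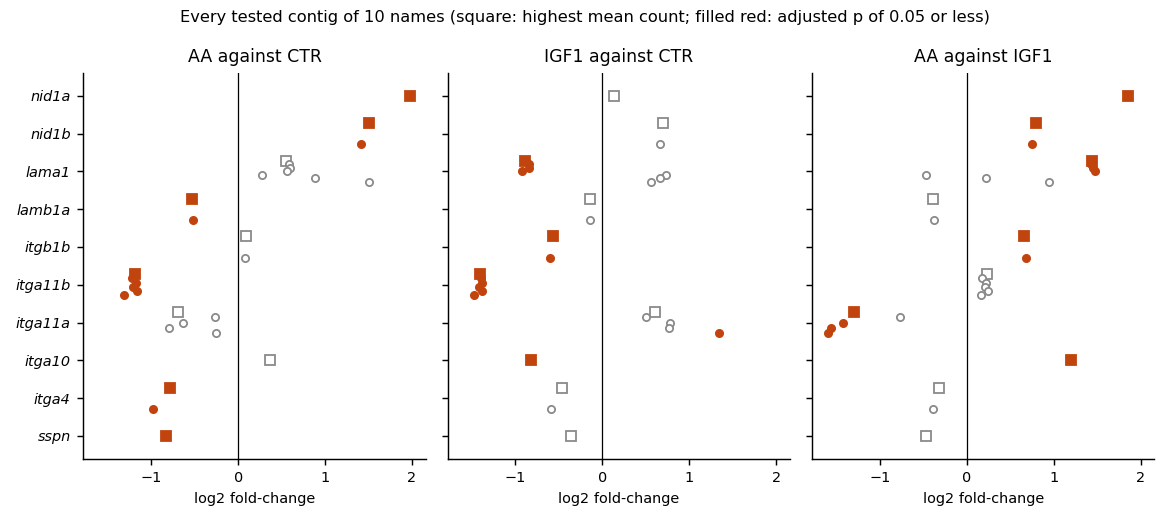
Log2 fold-change of every tested contig (points) of the 10 members that passed in at least 1 comparison, in AA against CTR, IGF1 against CTR and AA against IGF1; the square is the contig with the highest mean count and filled red marks an adjusted p of 0.05 or less. The 6 contigs of itga11b lie together in each panel, while the 7 of lama1 run from -0.93 to 0.73 in IGF1 against CTR.

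For 5 members both fish copies were tested, and the ratio of copy a to copy b within a library does not depend on how libraries are scaled. The ratio itgb1a to itgb1b was 0.825, 0.780 and 0.797 in AA, 1.396, 1.147 and 1.201 in IGF1 and 0.973, 0.724 and 0.774 in CTR. The IGF1 ratios were above all others, by a log2 difference of 0.61 from CTR. The ratio itga11a to itga11b was 0.0295, 0.0586 and 0.0935 in AA, 0.112, 0.122 and 0.186 in IGF1 and 0.0267, 0.0469 and 0.0340 in CTR. Again IGF1 stood above both other groups (log2 difference of 1.97 from CTR), and AA and CTR overlapped. The ratio tln2a to tln2b was 0.258, 0.378 and 0.400 in AA, 0.468, 0.615 and 0.596 in IGF1 and 0.349, 0.269 and 0.240 in CTR, once more with IGF1 above all others.

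For nid1a to nid1b the ratio was 3.33, 1.17 and 1.39 in AA, 1.14, 0.678 and 0.702 in IGF1 and 1.52, 1.02 and 1.07 in CTR. AA was above IGF1 in each library, and CTR overlapped both. The ratio lamb1a to lamb1b overlapped between all groups. With 3 libraries against 3 a two-sided exact permutation test cannot go below p = 0.1; 7 of the 15 tests over 5 pairs reached it, 3 in IGF1 against CTR and 4 in AA against IGF1, and adjusted over the 15 tests (Benjamini-Hochberg) these became 0.214. The pairs were formed with the values known, a ratio of counts says nothing of which copy has more transcripts, and reads of near-identical stretches could have been split between copies.

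**Figure D4:**
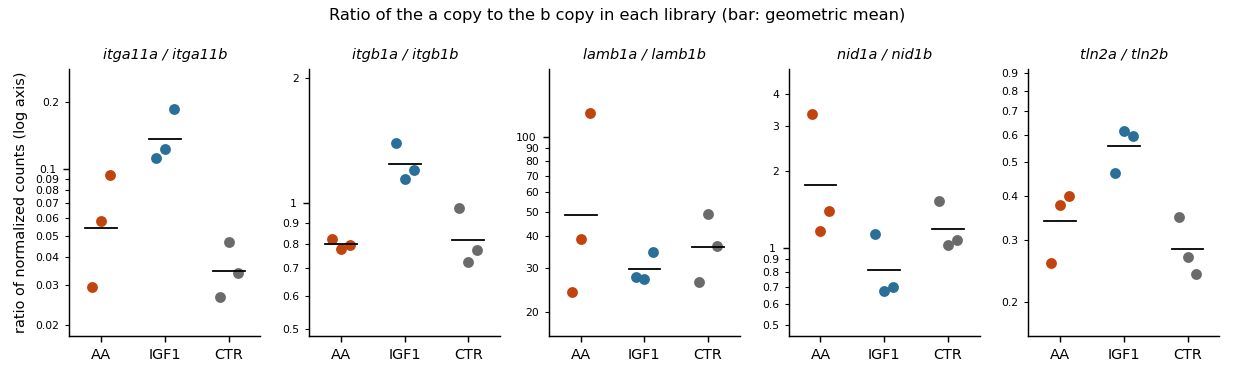
Ratio of normalized counts of copy a to copy b in each library (points, log axis, bar at the geometric mean) for the 5 pairs with both copies tested, AA, IGF1 and CTR from left to right. In IGF1 the itgb1a to itgb1b ratio lies between 1.147 and 1.396, above the 0.724 to 0.973 of the CTR libraries.

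Genes that work beside the members were read from 5 lists. Of 21 tested names of basement membrane and adhesive ligands, 10 rose and 3 fell in AA against CTR, 6 rose and 1 fell in IGF1 against CTR, and 7 were higher and 3 lower in AA than in IGF1. The medians were 0.43, 0.29 and 0.14 on the log2 scale, against 0.03, 0.05 and -0.02 over all names, of which 6.56% rose and 6.57% fell in AA, 3.11% rose and 3.31% fell in IGF1, and 4.23% were higher and 4.8% lower in AA than in IGF1. Osteopontin (spp1), a ligand of alpha v integrins, averaged 602 ± 201 normalized counts in AA, 86.3 ± 15.6 in IGF1 and 102 ± 11.5 in CTR (SD, n = 3 each). It rose in AA by 2.55 ± 0.22 (edgeR quasi-likelihood p-adj = 4.18e-07). Periostin b (postnb) averaged 800 ± 129 in AA, 359 ± 143 in IGF1 and 139 ± 77.0 in CTR, and rose with both treatments. Periostin a (postna) averaged 1460 ± 242 in AA, 3471 ± 507 in IGF1 and 1887 ± 183 in CTR and rose in IGF1 by 0.88 ± 0.14 (edgeR quasi-likelihood p-adj = 5.63e-04), while its AA difference of -0.38 did not pass. The basement membrane protein frem1b averaged 324 ± 15.1 in AA, 85.6 ± 24.8 in IGF1 and 106 ± 14.6 in CTR and rose in AA by 1.59 ± 0.21 (edgeR quasi-likelihood p-adj = 4.99e-05).

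Of 44 tested names of integrin adhesion partners, 3 rose and 5 fell in AA, 4 rose and 5 fell in IGF1, and 3 were higher and 4 lower in AA than in IGF1, with medians of -0.06, -0.15 and -0.04. In all, 8, 9 and 7 of the 44 passed, against 13.1%, 6.42% and 9.03% of all names. Tensin 2a (tns2a), which binds beta integrin tails and actin, averaged 277 ± 15.7 in AA, 493 ± 40.1 in IGF1 and 718 ± 95.3 in CTR and fell with both treatments, by 1.4 ± 0.15 in AA (edgeR quasi-likelihood p-adj = 7.18e-06). A focal adhesion kinase copy, ptk2aa, averaged 419 ± 59.0 in AA, 419 ± 74.6 in IGF1 and 768 ± 14.4 in CTR and fell with both treatments, by 0.93 ± 0.15 in AA and 0.89 ± 0.15 in IGF1 (edgeR quasi-likelihood p-adj = 5.21e-04 and 7.28e-04). Alpha-parvin (parvab), a partner of integrin-linked kinase, averaged 515 ± 113 in AA, 312 ± 68.1 in IGF1 and 635 ± 14.4 in CTR, and fell in IGF1 by 1.06 ± 0.17 (edgeR quasi-likelihood p-adj = 5.60e-04).

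None of 18 enzymes that glycosylate dystroglycan passed in any comparison, by edgeR's quasi-likelihood test or DESeq2, and none was at an unadjusted p under 0.05. Of all names 26.8%, 18.5% and 22.5% had such a p in AA against CTR, IGF1 against CTR and AA against IGF1. The costamere and membrane repair list (18 tested names) had 3 higher and 5 lower in AA, 2 higher and 1 lower in IGF1, and 2 higher and 4 lower in AA against IGF1. In all, 8, 3 and 6 of the 18 passed, against 13.1%, 6.42% and 9.03% of all names. Its caveolar coat genes cavin1a and cavin1b moved in opposite directions in AA, by 1.80 ± 0.32 and -0.99 ± 0.21 (edgeR quasi-likelihood p-adj = 8.59e-04 and 0.00480). Of 8 names of the agrin receptor and neuromuscular synapse, 2 rose in AA, MUSK, the kinase of the agrin receptor, (2.42 ± 0.71) and the acetylcholine receptor subunit chrng (2.20 ± 0.63; edgeR quasi-likelihood p-adj = 0.0306 and 0.0288), at means of 29.5 ± 17.3 and 22.4 ± 21.1 in AA against 4.19 ± 4.17 and 5.91 ± 1.13 in CTR. Of all names 6.56% rose in AA, and DESeq2 called 3 of the 8. In IGF1 against CTR and AA against IGF1 none of the 8 passed by edgeR's quasi-likelihood test or DESeq2. There 1 and 2 were at an unadjusted p under 0.05, against 18.5% and 22.5% of all names.

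**Figure D5:**
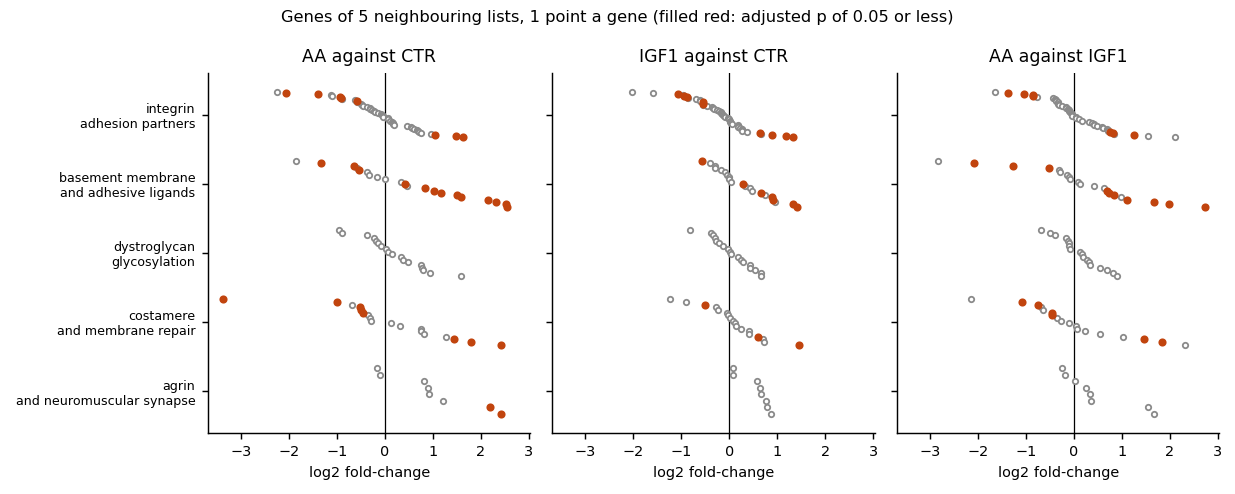
Log2 fold-change of the tested genes of 5 lists around the members (1 point a gene, spread vertically by rank), in AA against CTR, IGF1 against CTR and AA against IGF1; filled red marks an adjusted p of 0.05 or less. Of the 21 basement membrane and adhesive ligands 10 rose in AA, and none of the 18 glycosylation enzymes passed in any panel.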

How the data were processed

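Messenger RNA of 9 pacu myotube libraries was sequenced from TruSeq stranded libraries. The authors trimmed the reads, assembled them with Trinity, named the contigs by BLASTx against fish proteomes and mapped the reads with Bowtie2; the counting tool is not given in the sources used here. They deposited whole-number counts per contig without normalization. The second table holds signal values that the authors made by dividing these counts by 1 DESeq2 size factor per library, keeping contigs whose raw counts averaged at least 10; multiplied back, they differ from the counts by at most 0.00022. The submitters' processing notes also name FastQC 0.11.8 and Trimmomatic. Contigs carry no genome position or length here, so levels are compared between libraries, not between genes, and no sequence is shown. One label gives the supplement time as 12 h where the protocol has 24 h.

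Raw counts of all 9 libraries were tested in edgeR 4.0.16 (R 4.3.3) with TMM scaling, the group as the only term and the earlier quasi-likelihood method (F test), with Benjamini-Hochberg adjustment over 35575 contigs. Intervals are 95%, from the test's degrees of freedom. Per-library values are the authors' normalized counts. The steps were tested on simulated data. Alternatives used DESeq2 1.42.0, limma 3.58.1 on log2(normalized count + 1), other scalings, filters and fits, and each library left out. Values by library are given for members past 2-fold and p-adj of 0.05, for the up to 8 per comparison with the smallest p-adj among those that passed, and for the member with the most counts in each role; of each list, the 3 genes with the smallest p-adj may be named. Others were chosen after their values were seen. The members and lists were chosen with earlier results of these data known. The libraries come from 3 independent cultures, each of pooled fish; whether a library number marks a culture across groups is not stated, and p-values measure the spread between these libraries. Total counts (1366043 to 53525876) limit the precision of low members, above all in AA replicate 3. Replicates differed beyond sampling noise (chi-square over degrees of freedom 3.74 to 12.2), so each was counted. Some genes are not reported here, although they were tested and are in the counts.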

Additional observations from a re-analysis of the deposited data

How the results depend on the processing

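The calls of single members were stable for most: of 304 refits of 16 calls under 19 alternatives, 285 kept the call, 19 lost it and 0 reversed, and the members that lost it are named beside their values. For each call, 3 of the 19 alternatives left out a library of the group not compared. These kept both compared groups whole, so they were a weaker check of the call. The cause was not tested for the changes below. In AA against CTR 6 members passed; the count was 11 without a filter on low counts, 3 with the 2-fold minimum, and 4 to 10 when each library was left out in turn (10 without CTR replicate 1). In IGF1 against CTR 4 passed; the count was 7 without a filter, 8 with only the 2 groups compared, 2 in limma, 10 with the bias-adjusted quasi-likelihood method, 1 with the 2-fold minimum, and 2 to 6 with single libraries left out (2 without IGF1 replicate 3). In AA against IGF1 6 passed; the count was 10 with library size as the only scaling, 10 without a filter, and 5 to 7 with single libraries left out. Without AA replicate 3, the shallowest library, 8, 6 and 6 members passed. DESeq2 called 9, 6 and 8. Shares of all names are not given for these alternatives, so their counts of members are not set against such a share. With names in lower case only, an alternative added after the data were seen, the counts stayed at 6, 4 and 6.

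The median log2 fold-change of the members was 0.31 in AA against CTR and 0.21 in AA against IGF1 with library size as the only scaling, where the median of all names moved to 0.17 and 0.16; with single libraries left out it ran from 0.06 to 0.17 in AA against CTR, from -0.05 to 0.06 in IGF1 against CTR and from 0 to 0.11 in AA against IGF1.

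With the replicate number as a block (replicate block), 9, 6 and 10 members passed in AA against CTR, IGF1 against CTR and AA against IGF1, and all 16 calls were kept. DMD and LAMA3 also passed in AA against CTR, and nid1b and nid2a in IGF1 against CTR. Deviations of same-numbered libraries correlated between -0.027 and 0.127 over 9 pairs, with 1 above 0.1, and the numbers were therefore not treated as pairs, although 7 of 9 libraries correlated best with a library of their own number, a hint of pairing from the data.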
